A study of Homo sapiens with 5 samples.

Results

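The genes of cholesterol and fatty acid synthesis were examined in RNA-seq libraries of SAS cells, an established line of human tongue squamous cell carcinoma. The pathway group holds 31 genes chosen by name from the pathway, of 15187 genes that the deposited expression tables share. It comprises 23 genes of a cholesterol arm (enzymes, sterol sensors and a sterol carrier) and 8 genes of a fatty acid arm, and all 31 passed the filter on low counts. The knockdown cells carried short hairpin RNA against CCT2 (shCCT2, 3 libraries) and the others carried control short hairpin RNA (shCtrl, 2 libraries). CCT2 encodes a subunit of the chaperonin CCT, which folds actin, tubulin and other proteins. The libraries came in 2 separate tables, which are called sets here. Set B held shCCT2 3 and shCtrl 2, and set A held shCCT2 1, shCCT2 2 and shCtrl 1. The labels give neither the hairpin sequence nor the days after transduction, nor the cultures the libraries came from. The p-values therefore cover only variation among these 5 libraries, and part of it may be technical. Every change in a single shCCT2 library is relative to the shCtrl library of its own set.

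Cholesterol is built from acetyl-CoA through mevalonate, farnesyl diphosphate and squalene, and fatty acids are built from the same acetyl-CoA by carboxylation, chain growth and desaturation. Both branches are switched on by the SREBP transcription factors, which are made as membrane proteins of the endoplasmic reticulum. When membrane sterol is plentiful, the INSIG proteins hold SREBP and its escort SCAP in the endoplasmic reticulum, and when sterol is scarce SREBP is carried to the Golgi, cleaved, and released to the nucleus. INSIG1 and SREBF2 are themselves SREBP targets.

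The 2 sets stood apart. The difference between 2 libraries, as a chi-square per degree of freedom over all genes, was 173 for shCCT2 3 against shCtrl 2 and at least 206 for each pair across the sets, while it was 43.6 for shCCT2 1 and 20.3 for shCCT2 2 against shCtrl 1. It was 40.9 between shCCT2 1 and shCCT2 2, so shCCT2 2 was closer to shCtrl 1 than to shCCT2 1. CCT2 itself stood at 296, 272 and 260.2 CPM in shCCT2 1, 2 and 3, against 629.9 and 642 CPM in shCtrl 1 and 2, lower in every shCCT2 library (fitted log2 change -1.22 ± 0.18, SE; edgeR adjusted p = 0.542). DESeq2's Wald test called CCT2 lower (adjusted p = 3.9e-05). CPM are counts scaled to library size, here with the TMM method. Library totals ran between 17555763 and 18156592 counts for shCCT2 and were 17976483 and 16913585 counts for shCtrl 1 and 2. All 11 squamous epithelial markers were detected, with summed levels of 8104, 12416 and 7208 unscaled CPM in shCCT2 1, 2 and 3, against 12320 and 3322 in shCtrl 1 and 2. The summed fibroblast, leukocyte and endothelial markers reached at most 21.5 CPM in any library, and the fibroblast genes DCN and LUM had no counts. The last 20% of transcript positions held 14.3%, 15.8% and 14.6% of the read signal in shCCT2 1, 2 and 3, against 17.3% and 15.8% in shCtrl 1 and 2 (exact permutation test, two-sided, p = 0.3, where the smallest p that 3 against 2 libraries allow is 0.1).

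The widest differences of the pathway lay between the sets. In the fit on all 5 libraries, which holds a term for the set and a term for the hairpin, 21 of the 31 genes were lower and 1 was higher in set B than in set A (edgeR's quasi-likelihood test, Benjamini-Hochberg adjusted p under 0.05). The same test called 13.8% of all 13123 genes tested lower and 14.9% higher. The 31 genes had a median log2 difference of -1.18, set B minus set A, against 0.0046 for all genes tested. Both arms took part, with a median of -1.29 in the cholesterol arm and -0.9997 in the fatty acid arm, and 21 of 23 and 8 of 8 genes had lower fitted values. In 24 of the 31 genes both set B libraries lay below all 3 set A libraries, which held for 28.7% of all genes tested, and in 2 genes (PMVK and TM7SF2) both lay above them, against 29.5%. DESeq2 called 24 of the 31 lower and 1 higher, against 17.3% and 16.8% of all genes. Between the control libraries, 11 of the 31 genes were more than 3-fold lower in shCtrl 2 than in shCtrl 1 and 0 were more than 3-fold higher, against 6.04% and 11.3% of all genes. Of the 22 called genes 13 passed with each of the 5 libraries left out in turn, namely HMGCS1, IDI1, FDFT1, SQLE, LSS, CYP51A1, DHCR7, MSMO1, INSIG1, ACACA, FASN, SCD and FADS2. The calls of the other 9 were lost without at least 1 library. For FDPS that library was shCtrl 1, for MVK either shCtrl library and for SREBF2 either shCCT2 1 or shCCT2 3. SC5D lost its call without any 1 of the shCCT2 libraries, PMVK and ACLY without any of these or shCtrl 1, NSDHL and ELOVL6 without any library other than shCCT2 3, and HSD17B7 without any of the 5. This comparison was chosen after the values were seen. The set cannot be told apart from anything else that differed between the groups of libraries, such as culture, handling or sequencing run. The summed squamous epithelial markers given above were also lower in shCCT2 3 and shCtrl 2 than in the set A libraries, and their part in the result was not tested. In bulk libraries a change in the share of cells that express a gene and a change in RNA per cell cannot be told apart either.

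**Figure D1:**
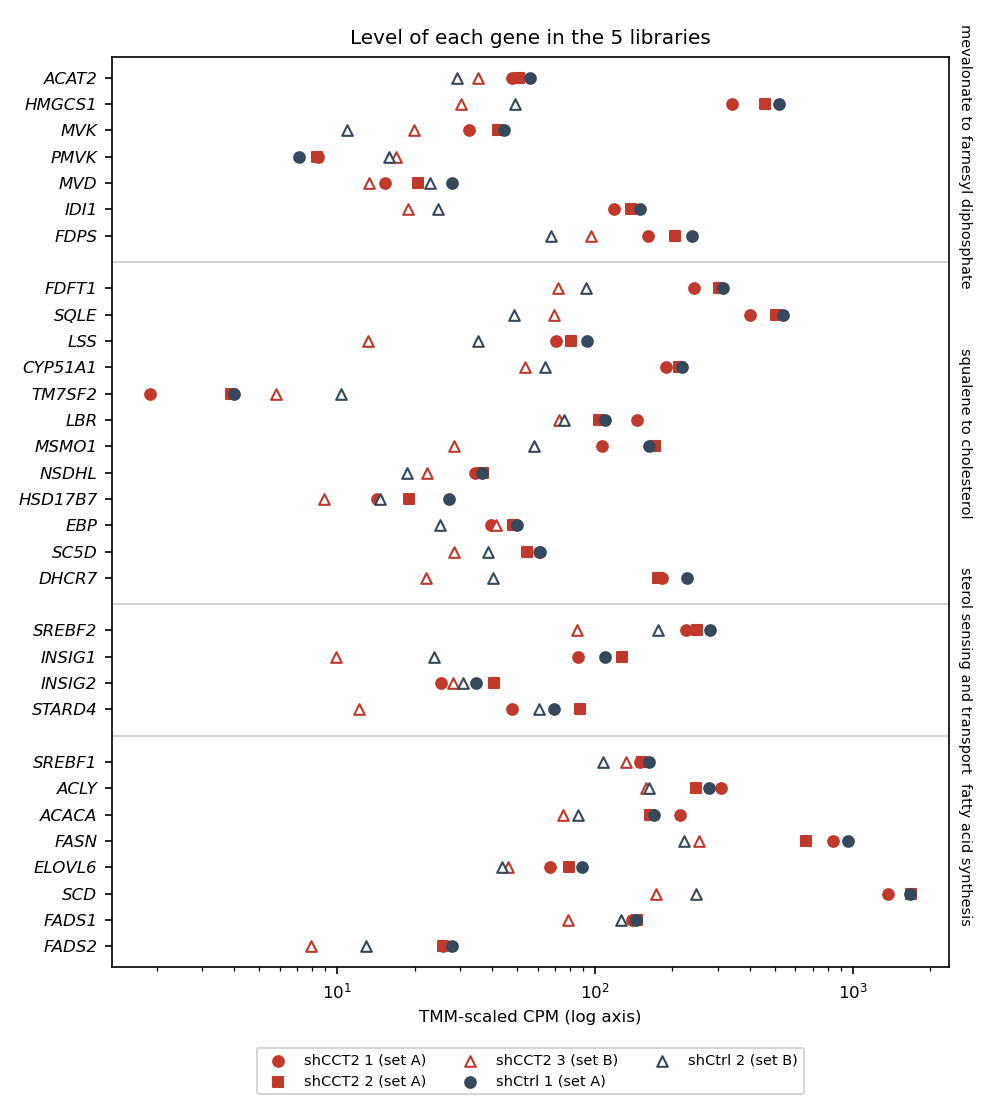
TMM-scaled CPM (log axis) of the 31 genes, ordered by their place in the pathway. Red marks the shCCT2 libraries and dark blue the shCtrl libraries, filled for set A and open for set B. In 24 genes both open points lie left of every filled one. Levels of different genes are not comparable here, since counts were not divided by transcript length.

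Among the enzymes that lead from acetyl-CoA to farnesyl diphosphate, the set difference was widest at HMGCS1. HMGCS1, the HMG-CoA synthase, stood at 339, 458 and 30.4 CPM in shCCT2 1, 2 and 3, against 519.8 and 48.9 CPM in shCtrl 1 and 2. That is a set difference of -3.58 ± 0.25 on the log2 scale (SE, 3 shCCT2 and 2 shCtrl libraries; edgeR adjusted p = 0.00144), and shCtrl 2 lay below shCtrl 1 by a factor of 10.6. IDI1, which isomerises isopentenyl diphosphate, stood at 118, 139 and 18.9 CPM in shCCT2 1, 2 and 3, against 150.3 and 24.7 CPM in shCtrl 1 and 2, with a set difference of -2.70 ± 0.20. FDPS, the farnesyl diphosphate synthase, stood at 161, 204 and 96.8 CPM in shCCT2 1, 2 and 3, against 237 and 67.9 CPM in shCtrl 1 and 2. MVK, the mevalonate kinase, stood at 32.6, 42.3 and 19.98 CPM in shCCT2 1, 2 and 3, against 44.3 and 10.98 CPM in shCtrl 1 and 2. In these 4 genes every set B library lay below every set A library. ACAT2, which makes the first intermediate acetoacetyl-CoA, stood at 47.6, 50.98 and 35.1 CPM in shCCT2 1, 2 and 3, against 55.9 and 29.3 CPM in shCtrl 1 and 2, and its set difference of -0.68 ± 0.20 did not pass (edgeR adjusted p = 0.0501). MVD, the mevalonate diphosphate decarboxylase, stood at 15.4, 20.7 and 13.3 CPM in shCCT2 1, 2 and 3, against 27.97 and 22.9 CPM in shCtrl 1 and 2, so its libraries were ordered by hairpin and not by set. PMVK, the phosphomevalonate kinase, was the 1 gene that was higher in set B, at 8.48, 8.36 and 16.9 CPM in shCCT2 1, 2 and 3, against 7.15 and 15.96 CPM in shCtrl 1 and 2 (1.07 ± 0.26, edgeR adjusted p = 0.0284).

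In the squalene and sterol part of the pathway, SQLE, the squalene epoxidase, stood at 398, 503 and 69.5 CPM in shCCT2 1, 2 and 3, against 536 and 48.5 CPM in shCtrl 1 and 2. Its level in shCtrl 2 was below that in shCtrl 1 by a factor of 11.04. DHCR7, which carries out the last reduction to cholesterol, stood at 183, 175 and 22.1 CPM in shCCT2 1, 2 and 3, against 228 and 40.2 CPM in shCtrl 1 and 2. The set differences were -3.02 ± 0.28 for SQLE and -2.79 ± 0.22 for DHCR7 (edgeR adjusted p = 0.00237 and 0.00180). FDFT1, the squalene synthase, stood at 243, 302 and 72.01 CPM in shCCT2 1, 2 and 3, against 314 and 92.5 CPM in shCtrl 1 and 2. LSS, which closes the rings to lanosterol, stood at 70.6, 80.8 and 13.2 CPM in shCCT2 1, 2 and 3, against 93.7 and 35.4 CPM in shCtrl 1 and 2. CYP51A1, the lanosterol demethylase, stood at 189.6, 212 and 53.5 CPM in shCCT2 1, 2 and 3, against 219 and 63.9 CPM in shCtrl 1 and 2. All 3 were lower in both set B libraries, and in LSS shCCT2 3 lay far below shCtrl 2 as well. MSMO1, which oxidises the methyl groups at the ring, stood at 107, 171 and 28.6 CPM in shCCT2 1, 2 and 3, against 162 and 57.9 CPM in shCtrl 1 and 2. NSDHL, the next dehydrogenase, stood at 34.3, 36.8 and 22.4 CPM in shCCT2 1, 2 and 3, against 36.4 and 18.7 CPM in shCtrl 1 and 2. HSD17B7, the ketosteroid reductase that follows, stood at 14.3, 18.98 and 8.90 CPM in shCCT2 1, 2 and 3, against 27.2 and 14.7 CPM in shCtrl 1 and 2. EBP, the sterol isomerase, stood at 39.7, 47.99 and 41.2 CPM in shCCT2 1, 2 and 3, against 50.1 and 25.2 CPM in shCtrl 1 and 2, and SC5D, the sterol desaturase, stood at 61.03, 54.6 and 28.6 CPM in shCCT2 1, 2 and 3, against 61.1 and 38.6 CPM in shCtrl 1 and 2. MSMO1, NSDHL, HSD17B7 and SC5D passed the test of the set and EBP did not (edgeR adjusted p = 0.225), its shCCT2 3 value lying within the range of set A.

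LBR and TM7SF2 encode the 2 enzymes of the same sterol reductase step, and LBR is also a receptor for lamin B at the nuclear envelope. LBR stood at 146, 103 and 72.4 CPM in shCCT2 1, 2 and 3, against 109 and 75.8 CPM in shCtrl 1 and 2. TM7SF2 stood at 1.89, 3.88 and 5.79 CPM in shCCT2 1, 2 and 3, against 3.98 and 10.4 CPM in shCtrl 1 and 2, from 32 to 196 counts per library. Their set differences had opposite signs, at -0.67 ± 0.22 for LBR and 1.17 ± 0.43 for TM7SF2, and neither passed (edgeR adjusted p = 0.0657 and 0.0892).

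Of the sterol sensing genes, INSIG1 stood at 86.4, 128 and 9.88 CPM in shCCT2 1, 2 and 3, against 109.6 and 23.8 CPM in shCtrl 1 and 2, a set difference of -2.88 ± 0.38 (edgeR adjusted p = 0.00575). INSIG2, the related gene that is not under the same sterol feedback, stood at 25.4, 40.8 and 28.1 CPM in shCCT2 1, 2 and 3, against 34.7 and 30.96 CPM in shCtrl 1 and 2, with a set difference of -0.20 ± 0.26 that did not pass (edgeR adjusted p = 0.588). So the INSIG1 libraries separated by set and the INSIG2 libraries overlapped. SREBF2, which encodes the SREBP of the cholesterol genes, stood at 226, 250.1 and 85.6 CPM in shCCT2 1, 2 and 3, against 281 and 176 CPM in shCtrl 1 and 2. SREBF1, which encodes the SREBP of the fatty acid genes, stood at 150.2, 152 and 132 CPM in shCCT2 1, 2 and 3, against 162 and 107 CPM in shCtrl 1 and 2. The set difference passed for SREBF2 (-1.12 ± 0.25, edgeR adjusted p = 0.0224) and not for SREBF1 (-0.36 ± 0.19, adjusted p = 0.188). STARD4, a carrier of sterol between membranes, stood at 47.8, 87.6 and 12.2 CPM in shCCT2 1, 2 and 3, against 69.7 and 60.8 CPM in shCtrl 1 and 2, so that shCCT2 3 alone was far from the rest.

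In the fatty acid arm the set difference was widest at SCD, the desaturase that makes oleate, with 1375, 1687 and 173 CPM in shCCT2 1, 2 and 3, against 1674 and 246 CPM in shCtrl 1 and 2 (-2.98 ± 0.24, edgeR adjusted p = 0.00180). FASN, the fatty acid synthase, stood at 840.1, 659.7 and 254 CPM in shCCT2 1, 2 and 3, against 956 and 223 CPM in shCtrl 1 and 2 (-1.79 ± 0.24). ACLY, which supplies cytosolic acetyl-CoA from citrate, stood at 308, 246 and 158 CPM in shCCT2 1, 2 and 3, against 278 and 163 CPM in shCtrl 1 and 2. ACACA, the acetyl-CoA carboxylase, stood at 214, 164 and 75.2 CPM in shCCT2 1, 2 and 3, against 169.6 and 86.1 CPM in shCtrl 1 and 2. ELOVL6, an elongase, stood at 66.98, 79.8 and 46.2 CPM in shCCT2 1, 2 and 3, against 89.1 and 43.6 CPM in shCtrl 1 and 2. The set difference of these 3 genes ran from -1.18 to -0.80, and all 3 passed the test. FADS1 and FADS2 encode desaturases of polyunsaturated fatty acids. FADS1 stood at 139, 146 and 78.9 CPM in shCCT2 1, 2 and 3, against 145 and 126 CPM in shCtrl 1 and 2 and FADS2 at 25.9, 25.7 and 7.92 CPM in shCCT2 1, 2 and 3, against 27.97 and 12.99 CPM in shCtrl 1 and 2. The difference passed for FADS2 (-1.44 ± 0.27, edgeR adjusted p = 0.0133) and not for FADS1 (adjusted p = 0.0995).

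**Figure D2:**
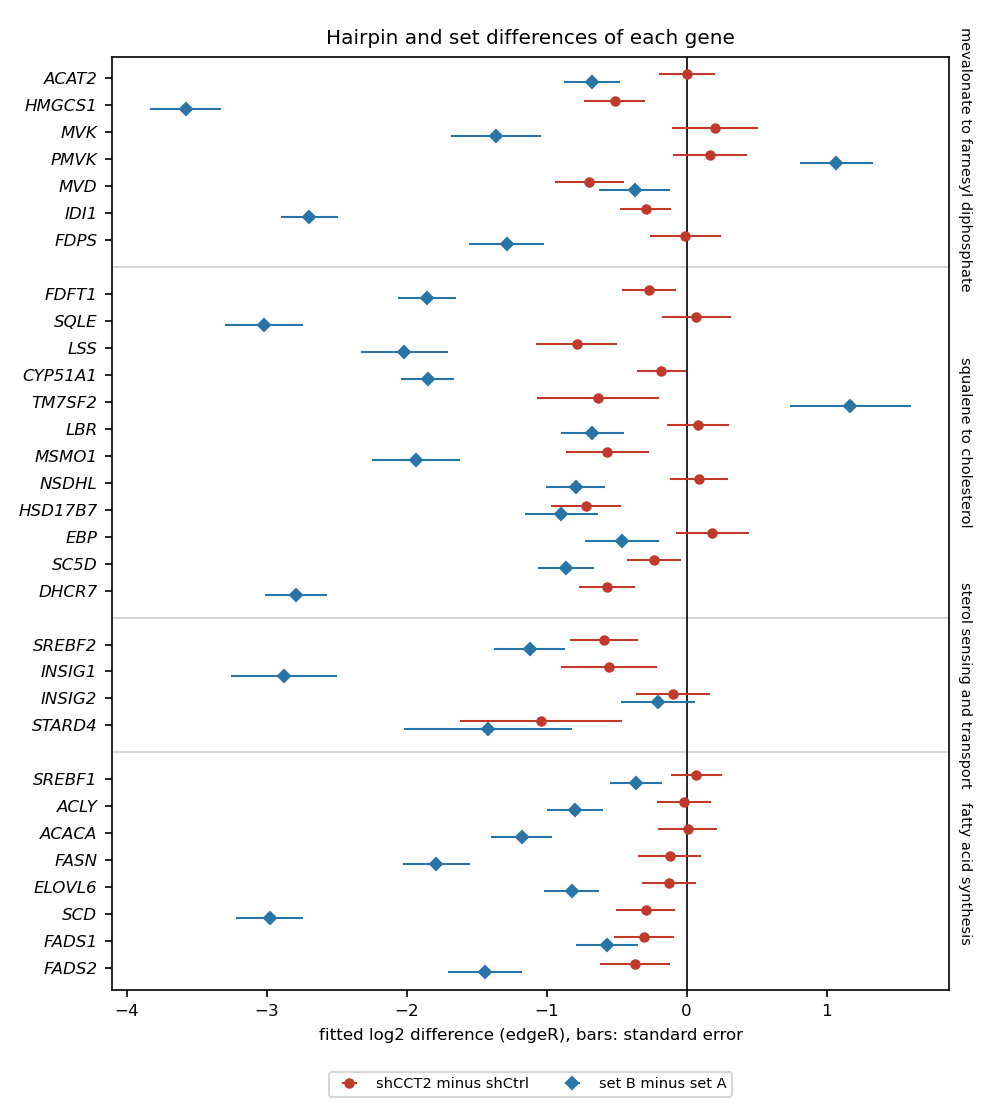
Fitted log2 differences (x axis) of the 31 genes, with standard errors as bars, from 1 fit on 3 shCCT2 and 2 shCtrl libraries. Red circles are shCCT2 minus shCtrl and run from -1.04 to 0.21. Blue diamonds are set B minus set A and run from -3.58 to 1.17.

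Since most of these genes were lower in set B, their promoters were read from RefSeq (GRCh38.p14), as windows of 300 bases from 250 before the annotated start to 50 after it. Windows were found for 27 of the 31 genes. The motifs searched on both strands were TCACNCCAC, a form of the sterol regulatory element bound by SREBP, and CCAAT, the box bound by NF-Y, which works beside SREBP on many sterol genes. At least 1 window of 20 of the 27 genes (74.1%) held CCAAT, as did 39.7% of all 27305 genes in the promoter table. Those 27305 include genes that were not tested here, and the share over tested genes alone was not taken. TCACNCCAC was in 1 of the 27 genes (3.7%) and in 1.39% of all genes. Counted by window, CCAAT was in 24 of 37 windows of these genes (64.9%) and in 34.6% of all windows. In the cholesterol arm 16 of 20 genes held CCAAT, and in the fatty acid arm 4 of 7. A match is a description of these letters and not a bound site. The windows below are those of the 4 genes with the largest set difference among those with a window, then SREBF2, the 1 match to TCACNCCAC, and the 2 genes with the opposite set difference, PMVK, which passed the test, and TM7SF2, which did not. Where RefSeq gives a gene more than 1 window, the one with the most CCAAT is printed. They run 5′ to 3′ along the gene's strand, and capitals mark the motifs on either strand (CCAAT reads ATTGG on the other strand). The windows lie at chr5:43313363-43313662 on the minus strand for HMGCS1, chr10:100346983-100347282 on the plus strand for SCD, chr7:155297628-155297927 on the plus strand for INSIG1, chr11:71448344-71448643 on the minus strand for DHCR7, chr22:41832855-41833154 on the plus strand for SREBF2, chr1:154936670-154936969 on the minus strand for PMVK and chr11:65111622-65111921 on the plus strand for TM7SF2.
HMGCS1: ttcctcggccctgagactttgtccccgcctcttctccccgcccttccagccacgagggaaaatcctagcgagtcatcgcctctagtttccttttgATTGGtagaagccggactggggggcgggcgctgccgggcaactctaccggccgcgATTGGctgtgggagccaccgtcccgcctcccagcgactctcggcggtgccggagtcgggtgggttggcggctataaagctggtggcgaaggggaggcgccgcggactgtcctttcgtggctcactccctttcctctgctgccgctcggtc
SCD: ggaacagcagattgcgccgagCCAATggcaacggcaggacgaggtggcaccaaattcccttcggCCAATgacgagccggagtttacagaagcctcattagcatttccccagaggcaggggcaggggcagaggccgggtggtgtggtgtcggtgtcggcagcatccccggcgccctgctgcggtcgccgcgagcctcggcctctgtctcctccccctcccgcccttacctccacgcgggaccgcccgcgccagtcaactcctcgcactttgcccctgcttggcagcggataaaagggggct
INSIG1: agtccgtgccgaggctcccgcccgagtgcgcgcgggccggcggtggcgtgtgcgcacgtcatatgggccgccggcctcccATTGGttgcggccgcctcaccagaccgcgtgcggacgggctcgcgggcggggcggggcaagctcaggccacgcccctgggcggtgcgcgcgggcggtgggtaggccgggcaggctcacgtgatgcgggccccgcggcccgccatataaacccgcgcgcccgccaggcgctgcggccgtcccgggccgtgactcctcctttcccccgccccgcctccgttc
DHCR7: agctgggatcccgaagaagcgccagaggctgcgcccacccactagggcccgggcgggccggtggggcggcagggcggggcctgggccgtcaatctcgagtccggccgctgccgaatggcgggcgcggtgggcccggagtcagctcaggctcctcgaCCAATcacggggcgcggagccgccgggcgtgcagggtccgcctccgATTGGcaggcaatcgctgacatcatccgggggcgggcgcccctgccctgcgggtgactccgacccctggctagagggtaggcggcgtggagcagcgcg
SREBF2: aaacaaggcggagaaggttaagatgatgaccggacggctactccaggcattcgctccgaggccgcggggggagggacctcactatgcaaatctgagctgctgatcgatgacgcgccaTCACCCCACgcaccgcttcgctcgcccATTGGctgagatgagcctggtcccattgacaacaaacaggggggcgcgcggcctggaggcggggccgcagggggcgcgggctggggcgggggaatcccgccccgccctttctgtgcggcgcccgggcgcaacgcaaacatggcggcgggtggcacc
PMVK: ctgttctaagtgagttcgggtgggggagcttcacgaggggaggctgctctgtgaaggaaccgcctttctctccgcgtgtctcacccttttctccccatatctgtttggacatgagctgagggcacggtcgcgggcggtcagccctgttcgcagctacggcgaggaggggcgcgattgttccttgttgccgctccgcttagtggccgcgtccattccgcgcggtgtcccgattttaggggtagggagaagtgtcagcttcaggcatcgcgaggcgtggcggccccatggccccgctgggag
TM7SF2: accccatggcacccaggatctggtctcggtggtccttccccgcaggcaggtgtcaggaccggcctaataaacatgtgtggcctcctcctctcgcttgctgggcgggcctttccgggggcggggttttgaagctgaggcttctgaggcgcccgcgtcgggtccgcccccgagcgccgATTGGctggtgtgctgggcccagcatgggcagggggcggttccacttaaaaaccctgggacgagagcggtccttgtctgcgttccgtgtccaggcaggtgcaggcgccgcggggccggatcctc
The SREBF2 window held TCACCCCAC from position 118, counted from its 5′ end, followed by an ATTGG. The printed HMGCS1, SCD and DHCR7 windows each held 2 CCAAT boxes and the INSIG1 window held 1. HMGCS1 and DHCR7 each have another window, not printed, that held 0. Of the 2 genes with the opposite set difference, PMVK held neither motif and TM7SF2 held 1 CCAAT, on the other strand. Among the windows not printed, CYP51A1 and ELOVL6, both called lower in set B, held 0 CCAAT. MVD and EBP, which were not called, held 3 each. Whether CCAAT goes with the set difference was not tested. The motifs overlapped in no window.

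With the set held constant, most genes of the pathway had lower fitted values in shCCT2 cells, and no gene passed. Of the 31 genes, 0 were called higher and 0 lower by edgeR's quasi-likelihood test with Benjamini-Hochberg adjustment, as were 0% of all genes tested. DESeq2's Wald test also called 0 of the 31, and it called 0.0169% of all genes with an adjusted p higher and 0.0928% lower. In simulated data edgeR's test called 3 of 199 genes changed 2-fold with shCCT2 (1.5%). An absent call therefore does not show that a gene was unchanged. At an unadjusted p under 0.05, 5 of the 31 were lower and 0 higher, against 4.57% and 2.83% of all genes tested. The 5 were HSD17B7, DHCR7, MVD, LSS and SREBF2, all of the cholesterol arm. That count was 1 without shCCT2 1 and 1 without shCCT2 3, where the hairpins are compared in set A alone. The median fitted log2 change was -0.27 over the 23 cholesterol genes, of which 16 had lower values, and -0.12 over the 8 fatty acid genes, of which 6 had lower values. The median over all genes tested was -0.016. The fatty acid median was -0.07 without shCCT2 2.

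The cholesterol genes had a median below that of all genes in each shCCT2 library. Their median log2 changes were -0.37, -0.08 and -0.38 in shCCT2 1, 2 and 3, each against its own shCtrl, and those of the fatty acid genes were -0.11, -0.10 and -0.12. Lower values were seen in 21, 17 and 16 of the 23 cholesterol genes and in 6, 6 and 5 of the 8 fatty acid genes. Over all genes tested, 50.1%, 50.1% and 51.2% were lower and the medians were -0.0014, -0.00028 and -0.021. In all 3 libraries 11 of the 23 cholesterol genes and 1 of the 8 fatty acid genes (FADS2) were lower, against 21.4% of all genes tested. The median size of a log2 change, whatever its sign, was 0.34, 0.13 and 0.51 over the 31 genes in shCCT2 1, 2 and 3, and 0.24, 0.14 and 0.51 over all genes tested, so changes of all genes were smallest in shCCT2 2. The changes in shCCT2 1 and shCCT2 2 share the control shCtrl 1. The 11 include SC5D, whose value in shCCT2 1 was -0.00080. Only PMVK of the 31 was higher in all 3, against 20.2% of all genes. MVD was the 1 gene in which all 3 shCCT2 libraries lay below both shCtrl libraries, which held for 8.28% of all genes tested, and in 0 genes did they all lie above, against 7.97%.

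**Figure D3:**
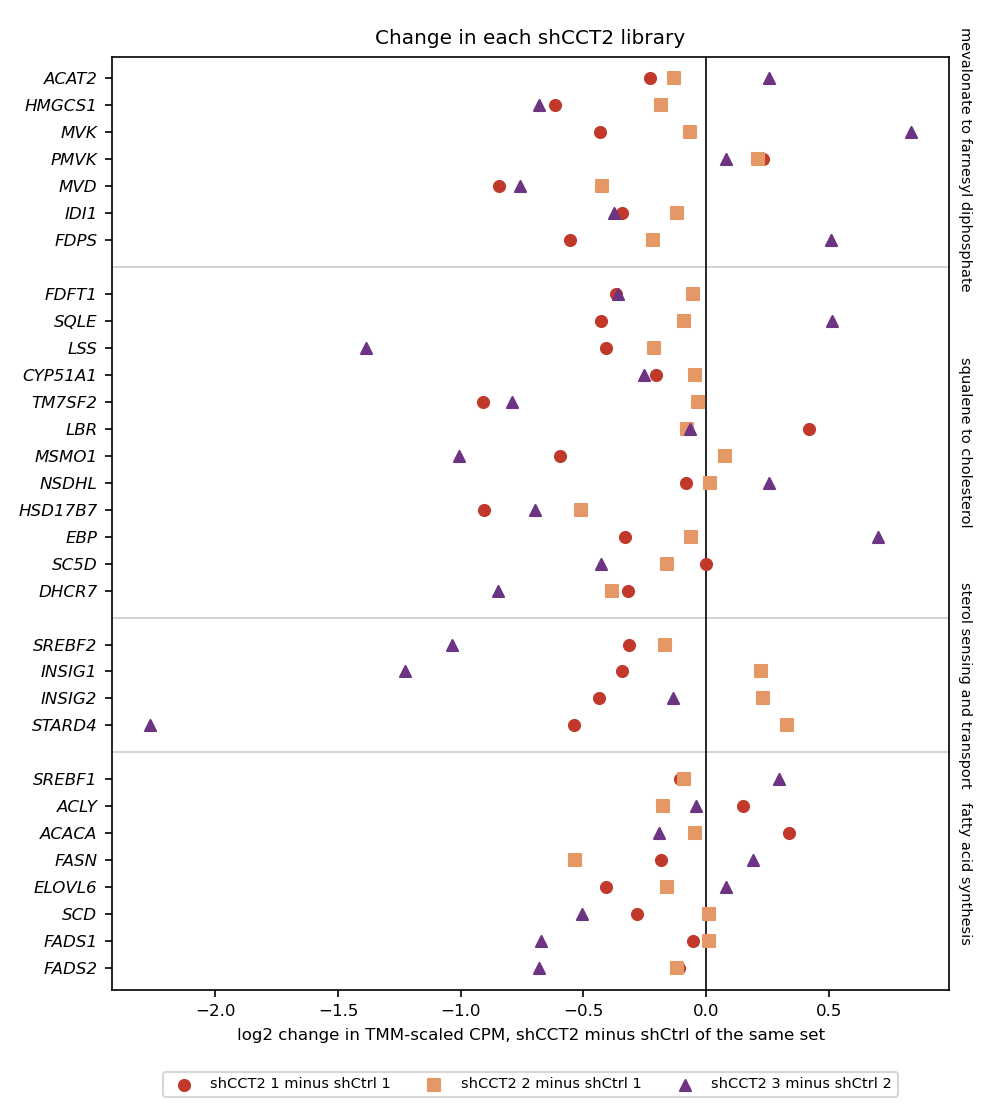
Log2 change of each gene in shCCT2 1, 2 and 3 (x axis), each minus the shCtrl library of its own set, ordered by place in the pathway. Points of shCCT2 3 spread from -2.27 to 0.84, those of shCCT2 1 from -0.91 to 0.42 and those of shCCT2 2 from -0.53 to 0.33.

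Among the genes that were lower in every shCCT2 library, HSD17B7 had log2 changes of -0.90, -0.51 and -0.70 in shCCT2 1, 2 and 3, with a fitted change of -0.72 ± 0.25 (SE; edgeR adjusted p = 0.542). For MVD they were -0.84, -0.42 and -0.76, with a fitted change of -0.70 ± 0.25. The values of these 2 genes were of like size in both sets. For DHCR7 they were -0.32, -0.38 and -0.85 (fitted -0.57 ± 0.20), and for HMGCS1 -0.62, -0.18 and -0.68 (fitted -0.51 ± 0.22). For LSS they were -0.41, -0.21 and -1.39 (fitted -0.78 ± 0.29), and for SREBF2 -0.32, -0.17 and -1.04 (fitted -0.59 ± 0.24). The change in shCCT2 3 was the widest of the 3 in LSS and SREBF2, and also in DHCR7, HMGCS1, IDI1, CYP51A1, SC5D and FADS2. IDI1, FDFT1 and CYP51A1 had smaller values, with fitted changes of -0.29 ± 0.18, -0.27 ± 0.19 and -0.18 ± 0.18. SC5D had -0.23 ± 0.19, FADS2 had -0.37 ± 0.25 and TM7SF2, at its low counts, had -0.63 ± 0.44. The adjusted p of these 12 genes lay between 0.542 and 0.659 (edgeR).

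The shCCT2 change went opposite ways in the 2 sets for a group of 8 genes, which were lower in both set A libraries and higher in shCCT2 3. They were ACAT2, MVK, FDPS, SQLE, EBP, SREBF1, FASN and ELOVL6. MVK had log2 changes of -0.43, -0.067 and 0.84 in shCCT2 1, 2 and 3, and EBP had -0.33, -0.060 and 0.70. FDPS had -0.55, -0.22 and 0.51 and SQLE had -0.43, -0.090 and 0.51. So of the 7 genes from ACAT2 to FDPS, 6 had lower values in each shCCT2 library of set A and 3 in shCCT2 3. FASN had -0.19, -0.53 and 0.19, ELOVL6 -0.41, -0.16 and 0.081, ACAT2 -0.23, -0.13 and 0.26 and SREBF1 -0.11, -0.089 and 0.30. The fitted changes of these 8 genes lay between -0.13 and 0.21. The set B values rest on shCCT2 3 against shCtrl 2 alone, and both set A changes share shCtrl 1. The share of all genes tested with this order of signs was not taken.

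A further 6 genes were lower in shCCT2 1 and shCCT2 3 and higher in shCCT2 2, namely MSMO1, INSIG1, INSIG2, STARD4, SCD and FADS1. STARD4 had log2 changes of -0.54, 0.33 and -2.27, with a fitted change of -1.04 ± 0.58, the widest standard error of the 31 genes. INSIG1 had -0.34, 0.22 and -1.23 (fitted -0.55 ± 0.34) and MSMO1 had -0.60, 0.075 and -1.01 (fitted -0.57 ± 0.29). All 3 were lowest in shCCT2 3 and highest in shCCT2 2 among the 5 libraries. SCD had -0.28, 0.011 and -0.51, INSIG2 -0.44, 0.23 and -0.14 and FADS1 -0.055, 0.013 and -0.67. Of the remaining genes, LBR, ACLY and ACACA were higher in shCCT2 1 and lower in the other shCCT2 libraries, and NSDHL was lower in shCCT2 1 alone.

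**Figure D4:**
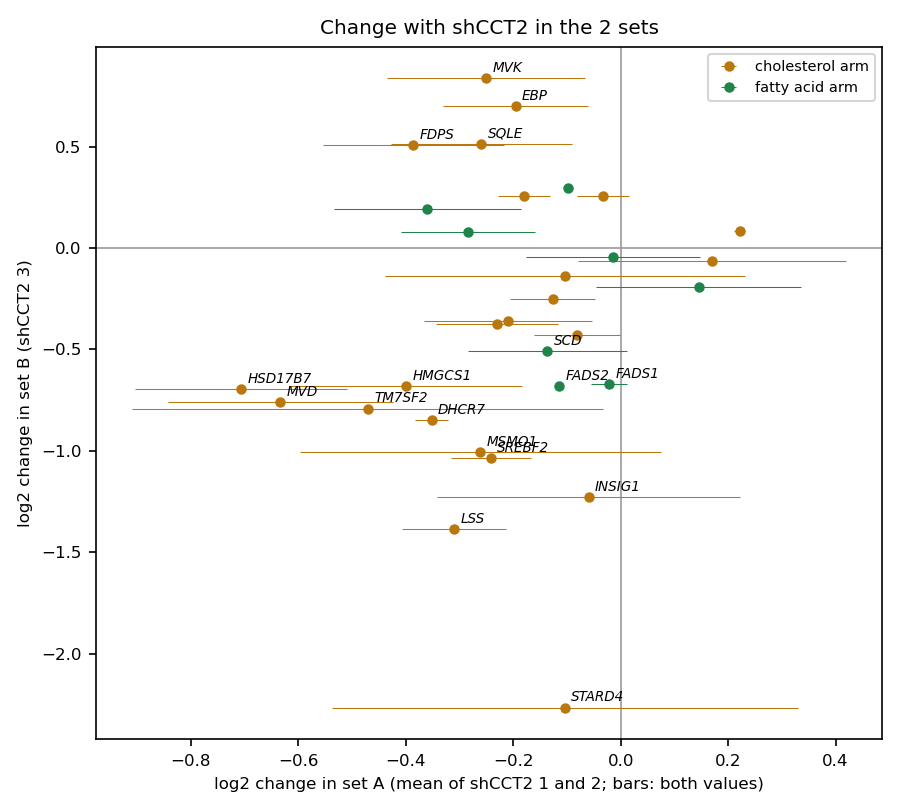
Log2 change with shCCT2 in set B (y axis, shCCT2 3 minus shCtrl 2) against the mean change in set A (x axis, bars span shCCT2 1 and shCCT2 2), for 23 cholesterol and 8 fatty acid genes. STARD4, LSS and INSIG1 lie lowest, at -2.27, -1.39 and -1.23 in set B, and MVK and EBP lie highest, at 0.84 and 0.70.

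The difference of the shCCT2 change between the sets was tested as an interaction. No gene of the 31 passed (edgeR, Benjamini-Hochberg), nor did any of all genes tested (0%), in a fit with 1 residual degree of freedom. At an unadjusted p under 0.05 there were 7 of the 31, against 17.2% of all genes tested, and all 7 were of the cholesterol arm. STARD4, LSS, INSIG1 and SREBF2 were lower by more in set B, with interactions of -2.27 ± 0.58, -1.11 ± 0.32, -1.24 ± 0.44 and -0.80 ± 0.30 (SE, set B minus set A; edgeR adjusted p = 0.171, 0.203, 0.253 and 0.268). MVK, EBP and FDPS were the other way, with 1.11 ± 0.40, 0.90 ± 0.35 and 0.89 ± 0.34 (adjusted p = 0.254, 0.274 and 0.273). Without scaling between libraries STARD4 passed (adjusted p = 0.0225).

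The same set difference was read in neighbouring pathways. The 7 genes for SREBP escort, cleavage and turnover had a median log2 difference of -0.09, set B minus set A, the 5 LXR receptors and targets 0.14, and the 10 genes of sterol uptake, transport and esterification -0.07. The median was 0.07 in 13 genes that use isoprenoids, -0.12 in 19 genes that activate, elongate or supply fatty acids and -0.28 in 9 genes of glycerolipid synthesis. Of these 63 genes 6 passed the test lower and 5 higher in set B (edgeR, adjusted p under 0.05), or 9.52% and 7.94%, against 13.8% and 14.9% of all genes tested. DESeq2 called 14 of the 63 lower (22.2%) and 5 higher (7.94%), against 17.3% and 16.8% of all genes tested. The median near 0 of the sterol uptake list held calls both ways, with 3 of its 10 genes higher and 2 lower by edgeR, and 3 higher and 4 lower by DESeq2. The difference between these lists and the 31 genes was not tested.

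With shCCT2, 0 of the same 63 genes passed edgeR's test over all genes. The 2 genes of each list with the smallest unadjusted p are given as values. ABCA1, the LXR-driven exporter of cholesterol, stood at 32.2, 27.3 and 27.4 CPM in shCCT2 1, 2 and 3, against 20.9 and 14.9 CPM in shCtrl 1 and 2, above both controls in every shCCT2 library (fitted 0.67 ± 0.23, SE; edgeR adjusted p = 0.542). ABCG1, a related exporter, stood at 4.77, 5.01 and 7.92 CPM in shCCT2 1, 2 and 3, against 8.02 and 10.5 CPM in shCtrl 1 and 2 (fitted -0.58 ± 0.31), below both controls. NPC1, which moves cholesterol out of lysosomes, stood at 83.8, 92.5 and 53.1 CPM in shCCT2 1, 2 and 3, against 108 and 155 CPM in shCtrl 1 and 2 (fitted -0.84 ± 0.31). GRAMD1A, a sterol carrier from the plasma membrane, had a fitted change of -0.86 ± 0.35, and in both genes shCCT2 3 was the lowest library. FNTB, a subunit of protein farnesyltransferase, stood at 14.96, 11.9 and 16.2 CPM in shCCT2 1, 2 and 3, against 6.46 and 10.1 CPM in shCtrl 1 and 2 (fitted 0.89 ± 0.29). ICMT, which methylates prenylated proteins, had 0.62 ± 0.25, and both isoprenoid genes were above both controls in all 3 shCCT2 libraries. The SREBP protease gene MBTPS2 had -0.39 ± 0.23 and the ubiquitin ligase gene RNF139 had 0.38 ± 0.29. The acyl-CoA synthetase gene ACSL1 had -0.80 ± 0.29 and the elongation enzyme gene HACD2 had 0.47 ± 0.19. The lipid synthesis genes CDS2 and AGPAT1 had -0.65 ± 0.28 and -0.34 ± 0.17. Several of these values rested on set B. Without shCCT2 3 the fitted changes were -0.29 for NPC1, -0.23 for GRAMD1A, 0.23 for ICMT, -0.092 for MBTPS2, -0.077 for RNF139, -0.35 for ACSL1, 0.29 for HACD2 and -0.18 for CDS2. Without shCtrl 1 they were -1.51 for NPC1, -1.64 for GRAMD1A, 1.19 for ICMT, -0.74 for MBTPS2, 1.07 for RNF139, -1.35 for ACSL1, 0.74 for HACD2 and -1.23 for CDS2, and ABCG1 had -0.38. Without shCtrl 2 the values of the 8 genes lay between -0.35 and 0.29. The fits without shCCT2 3 and without shCtrl 2 both compare the hairpins in set A alone, so they are not separate checks. The fit without shCtrl 1 compares them in set B alone.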

How the data were processed

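RNA of 5 SAS libraries was selected with oligo(dT) beads and copied from random hexamer primers for sequencing, per the labels' protocols. The values that the authors deposited are estimated counts, headed read counts per the file headers, of which 86.2% to 87.9% per library were whole. STAR 1.5.1, HTSeq and a mouse build (mm10) are listed in the submitters' processing notes. The gene identifiers carry a human prefix, and the sources used here do not give the build behind the counts or say whether strand was used. The authors also deposited a coverage signal by position along transcripts, per the file headers.

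The sets were joined on gene identifier and counts were rounded. Genes were tested with the quasi-likelihood test of edgeR 4.0.16 (R 4.3.3) after TMM scaling and filterByExpr, which kept 13123 genes, with a set term and a hairpin term (2 residual degrees of freedom, common coefficient of variation 0.255). P-values were adjusted over all genes by Benjamini-Hochberg. SE is the size of the log2 change over the root of F. Log2 changes of single libraries used CPM with 0.5 added. The fit was tested on simulated data, with 200 genes changed in 1 comparison at a time. In the data far more genes passed the set test (13.8% lower and 14.9% higher), so the simulated shares for the set need not hold there. Of genes changed 2-fold it called 1.5% for shCCT2 (3 of 199) and 13% for the set (26 of 200). Of genes changed 4-fold it called 74.5% and 81%. Genes left unchanged gave 0 false calls for shCCT2 and 8 for the set at 2-fold, and 6 and 12 at 4-fold. Alternatives were DESeq2 1.42.0, other scalings and filters, robust estimation, no set term, a replicate block, set A alone and each library left out. All 31 genes and CCT2 are named, and from each neighbouring list the 2 genes with the smallest p. The genes and lists were chosen with earlier results of these data known. ACAT2, CYP51A1 and STARD4 had non-whole counts in all 5 libraries, FDFT1 in 3 and SREBF2 in 2, as reads shared between sequences can give, and are uncertain to that extent.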

Additional observations from a re-analysis of the deposited data

How the results depend on the processing

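No pathway gene was called changed with shCCT2 under any alternative, and DESeq2 called 13 genes in all, CCT2 among them. With a library left out the count over all genes was 0 to 2, the cholesterol median -0.36 to -0.22 and the fatty acid median -0.14 to -0.073, and with fewer libraries to satisfy 12 to 16 cholesterol and 3 to 5 fatty acid genes were lower in all that remained. Without shCtrl 1 only shCCT2 3 kept the control of its own set. The 5 fatty acid genes are the count of that library alone, in which 51.2% of all genes tested were lower. For the other counts the share of all genes was not taken. In set A alone the fatty acid median was -0.11 and 4 fatty acid genes were lower in both libraries. The fatty acid median was -0.19 without scaling (4 genes lower in all 3), -0.12 without a filter and -0.17 with the strict one. With no set term the medians were -0.038 (cholesterol) and 0.047 (fatty acid). The replicate numbers were not taken as pairs, since shCCT2 2 and shCtrl 2 share a number across the sets. Deviations from the group means correlated over genes at 0.68 for shCCT2 1 and shCtrl 1, which share number and set. For shCCT2 2 they correlated at -0.60 with shCtrl 2 and at 0.60 with shCtrl 1. For shCCT2 3 they correlated at 0.73 with shCtrl 2, which shares its set. The deviations of the 2 shCtrl libraries mirror each other, so only the sign is informative. In all 3 shCCT2 libraries the positive value was with the shCtrl of the same set. For shCCT2 2 the sign thus went with the set and not with the number. A weaker pairing by number beneath the set difference cannot be seen in these values. With the replicate block in place of the set the medians were 0.43 and 0.40, a fit that compares across the sets within number 2. Log2 changes with shCCT2 that took the opposite sign were, under that block, HMGCS1 1.30, PMVK -0.35, IDI1 1.07, FDPS 0.51, FDFT1 0.67, LSS 0.39, CYP51A1 0.76, MSMO1 0.48, SC5D 0.25, DHCR7 0.90, SREBF2 0.094, INSIG1 1.04, ACLY 0.37, FASN 0.69, ELOVL6 0.23, SCD 1.25, FADS1 0.079, FADS2 0.43 and CDS2 0.095. With no set term they were PMVK -0.038, IDI1 0.071, FDPS 0.014, FDFT1 0.019, CYP51A1 0.10, INSIG1 0.16, ACLY 0.11 and SCD 0.17. In set A alone they were ACAT2 -0.18, MVK -0.24, SQLE -0.25, NSDHL -0.033, EBP -0.19, SREBF1 -0.097 and RNF139 -0.076. Without scaling they were ACAT2 -0.059 and ACACA -0.060, and with the strict filter ACAT2 -0.037 and ACACA -0.038. Genes whose sign changed when a library was left out ranged as follows: FDPS -0.38 to 0.54, LBR -0.068 to 0.19, INSIG2 -0.28 to 0.052, ACACA -0.17 to 0.16, ACLY -0.11 to 0.062, FASN -0.35 to 0.22, ACAT2 -0.18 to 0.29, MVK -0.24 to 0.89, SQLE -0.25 to 0.55, NSDHL -0.034 to 0.29, EBP -0.19 to 0.74, SREBF1 -0.098 to 0.33, RNF139 -0.078 to 1.07, ELOVL6 -0.28 to 0.11. None of these genes had passed, and the causes were not tested.

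With a library left out fewer genes passed the set test (15 to 19 lower, 0 to 1 higher), with arm medians of -1.44 to -0.96 and -1.10 to -0.97. DESeq2 called 24 lower and 1 higher. Without scaling 18 were lower, while the median of all genes moved to 0.17, against 0.0046 with TMM. CCT2's set difference, near 0, took the opposite sign without scaling (0.11), with the strict filter (0.021) and with a library left out (-0.13 to 0.060). The interaction called 1 of the 31 genes without scaling, and could not be fitted with any library left out.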

Other observations

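Genes of fatty acid oxidation, the reverse route, also had lower values in shCCT2 cells, and none passed. Of 15 genes 11 had a lower fitted value, with a median log2 change of -0.26, and 7 were lower in all 3 shCCT2 libraries, against 21.4% of all genes tested. PPARA, a transcription factor of fatty acid oxidation, stood at 5.77, 10.6 and 5.68 CPM in shCCT2 1, 2 and 3, against 14.1 and 37.5 CPM in shCtrl 1 and 2, with a fitted change of -1.64 ± 0.54 (SE; edgeR adjusted p = 0.542). ACAA2, a mitochondrial thiolase, stood at 19.7, 18.9 and 12.1 CPM in shCCT2 1, 2 and 3, against 23.9 and 44.2 CPM in shCtrl 1 and 2 (fitted -0.9963 ± 0.39). In both genes the change was widest in shCCT2 3. Without shCCT2 3 the fitted changes were -0.78 for PPARA and -0.31 for ACAA2, and without shCtrl 2 they were -0.78 and -0.31. Both fits compare the hairpins in set A alone, so they are not separate checks. Without shCtrl 1 the fitted changes were -2.69 for PPARA and -1.84 for ACAA2, from shCCT2 3 against shCtrl 2 alone. Between the sets this list had a median log2 difference of 0.37, set B minus set A, with 10 of 15 genes higher, while 29 of the 31 synthesis genes were lower. The calls went both ways, with 2 of the 15 higher (13.3%) and 2 lower (13.3%) by edgeR, against 14.9% and 13.8% of all genes tested. DESeq2 called 3 higher (20%) and 5 lower (33.3%), against 16.8% and 17.3%. The difference between the 2 lists was not tested.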
